A study of Mus musculus with 2 samples.

Results

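The genes described here encode Wnt ligands, their Frizzled, Lrp and Lgr receptors, R-spondins, secreted Wnt antagonists, Axin scaffolds and the TCF/LEF factors, as measured in sorted mouse liver mesothelium. They were chosen by symbol: every probe set with 1 platform gene symbol beginning Wnt, Fzd, Sfrp, Dkk or Rspo and a number, or being Lrp5, Lrp6, Lgr4, Lgr5, Lgr6, Axin1, Axin2, Lef1, Wif1 or beginning Tcf7. This gave 103 of 45037 probe sets, for 53 of 18193 genes. The adult group was 1 array of Mesothelin+ cells from livers of 8-week-old C57BL/6 mice. The E12.5 group was 1 array of PCLP1+ cells from livers of C57BL/6 embryos at embryonic day 12.5. Livers of both stages were digested with collagenase, both populations were isolated on a cell sorter, and 10 ng of total RNA was carried through 2 cycles of amplification before hybridisation to an Affymetrix array. How many animals went into an array is not given in the sources used here. With 1 array per group there is no replicate check on any difference below, no test was possible, and effects of stage, of the antibody used for sorting and of the array cannot be told apart.

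Wnt proteins are secreted lipid-modified ligands that bind Frizzled receptors. With Lrp5 or Lrp6 at their side, Frizzled receptors stop the Axin-based complex that destroys beta-catenin, and beta-catenin then acts with TCF/LEF factors on target genes. R-spondins bind Lgr receptors and keep Frizzled receptors on the cell surface, whereas Sfrp proteins and Wif1 bind Wnts and Dkk1 blocks Lrp5 and Lrp6. In the liver this pathway is known for the zonation and growth of hepatocytes, with sinusoidal and central vein endothelium as sources of Wnt2, Wnt9b and Rspo3.

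Signals are linear array intensities. Those of the adult array were divided by 0.680, the ratio of the array medians, which is the scaling behind the ratio that the authors deposited. A gene was taken as detected where a probe set had a present call on at least 1 array, and the detected probe set brightest on average over both arrays (mean of log2 signals) stood for the gene. Levels of single genes are compared between the arrays only within a probe set. Summed signals of marker lists add 1 probe set per gene, with genes lacking a present call included, so that bright probe sets weigh most. Where a probe set was present on 1 array alone, the fold is a lower bound and is written as "at least". Probe sets of the same gene that were detected on both arrays had log2 differences with an SD of 0.62 around their gene's mean (4279 genes), which measures disagreement of probe sets on the same pair of arrays and not error between arrays. A present call was made for 52.2% of probe sets on the adult array and 51.9% on the E12.5 array.

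Mesothelial markers were present on both arrays in 8 of 8 genes, with a summed signal of 59695 in adult cells and 26131 in E12.5 cells. These sums do not describe each marker. Of the 8, 4 passed 2-fold towards adult, 1 towards E12.5 and 3 in neither direction (16.9% and 29.1% of all detected genes passed towards adult and E12.5). Wt1 had 2228 in adult and 2152 in E12.5 cells, and Krt18 had 2667 and 2486. The sorting antigens followed the labels, with Msln at 11835 in adult and 48.5 in E12.5 cells and Podxl at 1807 in adult and 6069 in E12.5 cells. Markers of other liver cells differed as well. Macrophage markers were present in 8 of 8 genes in adult and 3 of 8 in E12.5 cells (summed signals 22545 and 641), and endothelial markers in 7 of 8 in each (14783 in adult and 1697 in E12.5 cells). Hepatocyte and hepatoblast markers were present in 5 of 7 genes in adult and 7 of 7 in E12.5 cells (2598 and 28499), with Afp and Fgb absent in adult. Erythroid markers were present in none of 7 genes in adult and 6 of 7 in E12.5 cells (116 and 2028). Stellate and fibroblast markers were present in 6 of 8 genes in adult and 7 of 8 in E12.5 cells (5183 and 9170), with Des absent in adult and Lrat absent in E12.5 cells. Acta2 made up 3811 of the adult sum. Of 4 cholangiocyte markers, 2 were present in adult and 4 in E12.5 cells (6000 and 3845), with Epcam and Sox9 absent in adult. Krt7 alone made up 5585 of the adult sum and 3597 of the E12.5 sum, so that these sums describe mainly 1 gene. The part of these cells in any difference below was not tested, and fewer cells of a type cannot be told apart from less RNA per cell. The ratio of 3' to 5' control signals for Gapdh was 6.81 in adult and 2.07 in E12.5 cells, and for beta-actin 3.47 in adult and 1.93 in E12.5 cells, and its part in the differences was not tested either.

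Of the 53 genes, 40 were detected on at least 1 array, 27 of them on both, 3 in adult alone and 10 in E12.5 cells alone. Among all detected genes, 9.84% were detected in adult alone and 10.8% in E12.5 cells alone. The 10 include Fzd10, Lrp5 and Wnt8b, whose E12.5 signals (23.7, 16.5 and 18.0) were weak and below their adult signals. Of the 40, 8 stood at least 2-fold above E12.5 in adult cells, 15 stood at least 2-fold above adult in E12.5 cells, and 17 did neither. Over all 12801 detected genes, the shares were 16.9% towards adult and 29.1% towards E12.5, and the corresponding shares of the Wnt genes, 20.0% and 37.5%, lay near this background, so that the counts alone set the Wnt genes apart in neither direction. The median log2 difference, adult minus E12.5, was -0.40 over the 40 genes, with measured values or with bounds in their place, and -0.35 over all detected genes. Of the 27 genes present on both arrays, 6 passed 2-fold towards adult and 10 towards E12.5, where the shares of all 10154 such genes were 13.2% and 27.1%. The split of the 2-fold differences depended on the scaling: 65.2% lay towards E12.5 here, 76.9% with no scaling, 56.0% after quantile normalization and 52.2% with detected genes centred, where the median difference of genes present on both arrays is 0. The split of all detected genes moved in the same order, at 63.2%, 80.2%, 53.7% and 45.8% towards E12.5. Of the 23 genes at least 2-fold apart, 18 were so under all 4 scalings.

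**Figure D1:**
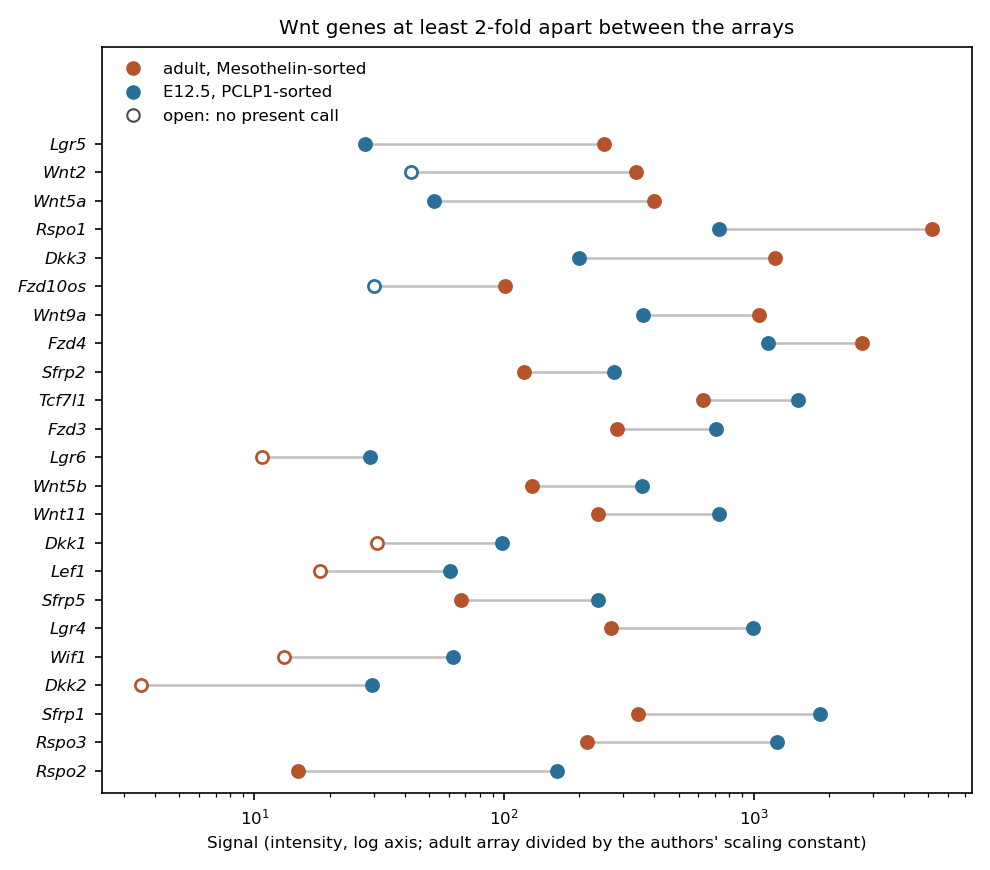
Signals of the 23 Wnt genes at least 2-fold apart, with the array intensity on a log axis and 1 row per gene. Filled points have a present call and open points do not. The 8 genes at the top are higher in adult cells, with Rspo1 at 5204 in adult and 726 in E12.5 cells, and the 15 below are higher in E12.5 cells, with Rspo2 at 14.9 in adult and 163 in E12.5 cells.

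The largest differences in each direction belonged to secreted proteins and Lgr5. At 4-fold the counts were 5 of 40 towards adult and 5 of 40 towards E12.5, where the shares of all detected genes were 8.37% and 10.2%. Lgr5, Wnt2, Wnt5a, Rspo1 and Dkk3 were those in adult, and Rspo2, Rspo3, Sfrp1, Dkk2 and Wif1 at E12.5. Of these, Rspo2, Dkk2 and Wif1 came within 2-fold under an alternative of detection or of low signals. Most Frizzled genes and both Lrp genes lay within 2-fold.

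**Figure D2:**
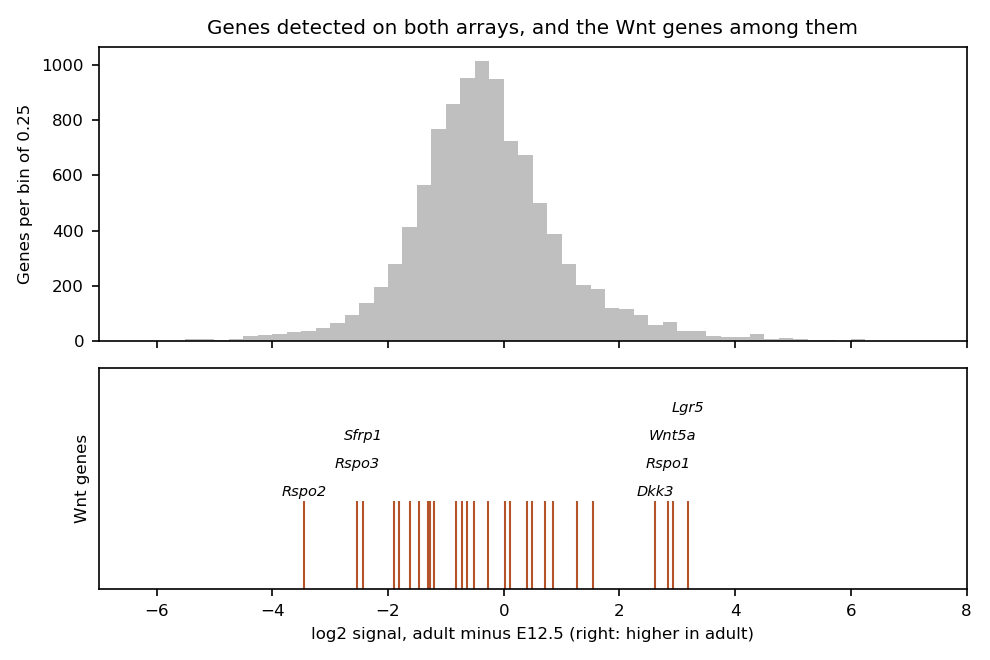
Log2 differences, adult minus E12.5, of the 10154 genes detected on both arrays (upper panel, bins of 0.25) and of the 27 Wnt genes among them (lower panel, 1 line per gene). Lgr5, Wnt5a, Rspo1 and Dkk3 lie in the right tail and Rspo2, Rspo3 and Sfrp1 in the left tail.

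Promoter sequence is shown for 5 of the genes at least 2-fold apart, to set members of both directions beside the letters that TCF/LEF factors are known to bind. The windows run from 250 bases before to 50 bases after a gene's start, 5′ to 3′ on the gene's strand, and are from RefSeq (GRCm38.p6). The RefSeq table held 21 windows for 15 of the 23 genes. The others were Dkk3, Fzd10os, Fzd3, Lgr5, Rspo2, Rspo3, Sfrp1 and Wnt5a. The letters searched were CTTTGAA and CTTTGAT on both strands, which share their first 6 letters and so cannot both match at the same place. They were found in 3 of the 21 windows (14.3%) and in 8.65% of all 32851 windows of the table, and a match describes these letters and is not a binding site. Rspo1 (chr4:124986180-124986479, plus strand) and Wnt2 (chr6:18030396-18030695, minus strand) were higher in adult cells and had no match. Wnt11 (chr7:98834862-98835161, plus strand), Wnt5b (chr6:119449337-119449636, minus strand) and Dkk1 (chr19:30549447-30549746, minus strand) were higher in E12.5 cells and had a match, which begins 51, 71 and 117 bases upstream of the start. The windows shown for E12.5 were picked to include every match. By gene, 0 of 4 higher in adult and 3 of 11 higher at E12.5 had a match, and the E12.5 genes without one were Dkk2, Lef1, Lgr4, Lgr6, Sfrp2, Sfrp5, Tcf7l1 and Wif1. The share of 8.65% is by window, and none was computed by gene. Lef1, Wnt5b and Wnt11 had several windows, which gives a gene more places for a match. With so few genes, no contrast between the directions is drawn. The window of Wnt11 was 1 of 2 and that of Wnt5b 1 of 3, and the other windows of both genes had no match. Capitals mark the matched letters.
Rspo1: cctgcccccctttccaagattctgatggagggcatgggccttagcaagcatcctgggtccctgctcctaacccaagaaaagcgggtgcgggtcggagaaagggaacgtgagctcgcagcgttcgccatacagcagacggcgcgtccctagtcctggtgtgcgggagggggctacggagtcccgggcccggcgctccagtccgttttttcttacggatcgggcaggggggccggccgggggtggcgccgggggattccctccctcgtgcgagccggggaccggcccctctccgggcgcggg
Wnt2: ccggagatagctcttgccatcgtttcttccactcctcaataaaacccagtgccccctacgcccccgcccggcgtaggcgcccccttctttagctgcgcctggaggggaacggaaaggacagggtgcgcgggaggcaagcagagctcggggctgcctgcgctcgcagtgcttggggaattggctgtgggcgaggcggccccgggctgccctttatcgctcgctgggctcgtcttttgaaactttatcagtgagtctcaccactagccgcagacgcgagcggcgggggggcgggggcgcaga
Wnt11: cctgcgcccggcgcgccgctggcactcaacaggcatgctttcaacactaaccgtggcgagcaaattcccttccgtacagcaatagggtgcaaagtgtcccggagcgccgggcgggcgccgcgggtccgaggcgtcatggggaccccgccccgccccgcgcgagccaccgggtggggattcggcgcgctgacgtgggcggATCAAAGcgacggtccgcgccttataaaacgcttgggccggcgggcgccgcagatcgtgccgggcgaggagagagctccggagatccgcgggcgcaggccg
Wnt5b: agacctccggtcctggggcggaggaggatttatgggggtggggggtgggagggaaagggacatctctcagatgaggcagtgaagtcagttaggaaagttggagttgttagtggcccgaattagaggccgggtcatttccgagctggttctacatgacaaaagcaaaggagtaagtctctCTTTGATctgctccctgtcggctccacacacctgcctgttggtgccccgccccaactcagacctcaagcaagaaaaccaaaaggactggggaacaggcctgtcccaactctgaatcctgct
Dkk1: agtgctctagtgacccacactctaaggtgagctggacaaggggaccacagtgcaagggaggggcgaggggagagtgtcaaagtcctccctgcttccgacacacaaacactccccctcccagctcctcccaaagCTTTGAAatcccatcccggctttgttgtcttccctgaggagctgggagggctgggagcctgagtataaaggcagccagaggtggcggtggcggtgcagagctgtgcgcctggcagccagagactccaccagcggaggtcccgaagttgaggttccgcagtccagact

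Among the 19 Wnt ligands with a probe set, 10 were detected: 3 passed 2-fold towards adult, 2 towards E12.5 and 5 in neither direction (median log2 difference -0.08). The shares of all detected genes were 16.9% towards adult and 29.1% towards E12.5 (median -0.35). With 10 genes, the counts are not read as a result about the ligands as a group. Wnt5a, a ligand best known for signalling without beta-catenin, had a signal of 399 in adult and 52.5 in E12.5 cells, 7.58-fold higher in adult. Only 2.18% of genes present on both arrays were at least as far towards adult. Its other detected probe sets went the same way, with 182 in adult and 33.2 in E12.5 cells on one, and 54.9 in adult and 2.64 (absent) in E12.5 cells on the other.

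Wnt2, a beta-catenin ligand of liver sinusoidal endothelium, had 339 in adult cells and 42.4, without a present call, in E12.5 cells, at least 7.99-fold higher in adult. Of 7 detected endothelial markers, 4 passed 2-fold towards adult and none towards E12.5, where the shares of all detected genes were 16.9% and 29.1%. Stab2 had 2485 in adult and 356 in E12.5 cells and Clec4g 6765 and 91.9. The other detected markers lay within 2-fold, with Cdh5 at 109 in adult and 128 in E12.5 cells, Tek at 137 and 257, and Lyve1 at 369 and 253. Rspo3, made by central vein endothelium in adult liver, went the other way from Wnt2, with 214 in adult and 1245 in E12.5 cells. The part of endothelial cells in the Wnt2 and Rspo3 differences was not tested. Wnt9b, the other endothelial Wnt of the liver, had no present call on either array, at 47.2 in adult and 28.5 in E12.5 cells on its brighter probe set. Wnt9a, a close relative of Wnt9b, had 1047 in adult and 360 in E12.5 cells, 2.91-fold higher in adult, and its log2 difference of 1.54 was 0.98 with no scaling.

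Wnt11 and Wnt5b stood on the E12.5 side. Wnt11, known for cell movements in the gastrula, had 237 in adult and 728 in E12.5 cells, 3.07-fold higher at E12.5. Wnt5b, the nearest relative of Wnt5a, had 129 in adult and 357 in E12.5 cells, 2.77-fold higher at E12.5, on a probe set that may match several transcripts. Its second probe set had 71.3 (marginal) in adult and 185 in E12.5 cells. The pair Wnt5a and Wnt5b therefore lay on opposite sides, in all 5 of their detected probe sets.

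The 5 other detected ligands lay within 2-fold. Wnt4, needed for kidney tubules and the female gonad, had 787 in adult and 1129 in E12.5 cells. Wnt7b had 293 in adult and 160, without a present call, in E12.5 cells, at least 1.83-fold higher in adult. Wnt7a (68.7 in adult, marginal, and 100.3 in E12.5 cells) and Wnt6 (60.8, marginal, and 73.7) were present in E12.5 cells alone. Wnt8b was called absent in adult at a signal of 19.5 and present in E12.5 cells at 18.0, so that no fold can be given. Wnt1, Wnt2b, Wnt3, Wnt3a, Wnt8a, Wnt9b, Wnt10a, Wnt10b and Wnt16 had no present call on either array.

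Frizzled receptors, the seven-pass receptors that Wnts bind, were mostly detected on both arrays and mostly within 2-fold. Of 11 entries with a probe set 10 were detected, where Fzd10os is an antisense RNA beside Fzd10 and not a receptor. Of the 10, 2 passed 2-fold towards adult, one of them Fzd10os, 1 towards E12.5 and 7 in neither direction. Among all 12801 detected genes, 16.9% passed 2-fold towards adult, 29.1% towards E12.5 and 6901 genes in neither direction (median -0.35). The median log2 difference of the 10 Frizzled entries was 0.29 with measured values and 0.065 with bounds in their place. It was 0.065 over the 8 entries present on both arrays. Fzd4, which also serves as the receptor of norrin, had 2727 in adult and 1139 in E12.5 cells, 2.39-fold higher in adult, and 1194 and 588 on a second probe set. With no scaling its log2 difference of 1.26 was 0.70. Fzd3, known for axon guidance, had 283 in adult and 706 in E12.5 cells, 2.49-fold higher at E12.5, and its 2 other detected probe sets were 3.23-fold and 1.92-fold higher at E12.5. Its log2 difference of -1.32 was -0.94 with detected genes centred.

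The remaining receptors lay within 2-fold. Fzd7 had 1263 in adult and 1238 in E12.5 cells, Fzd6 had 511 and 477, and Fzd5 had 358 and 257. Fzd2 had 1536 in adult and 2539 in E12.5 cells, 1.65-fold higher at E12.5, on all 3 of its probe sets in that direction. The representing probe set of Fzd1 had 1260 in adult and 767 in E12.5 cells, while a dim one had 20.4 and 25.6, in the other direction. For Fzd8 the values were 195 in adult and 237 in E12.5 cells, and 17.4 and 61.0 on a dimmer probe set. Fzd10 was called absent at 44.3 in adult and present at 23.7 in E12.5 cells, whereas Fzd10os had 101 in adult and 30.1, without a present call, in E12.5 cells (at least 3.36-fold). Fzd9 was not detected.

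Of the Lrp co-receptors, which pass the Wnt signal on to Axin, Lrp6 had 391 in adult and 607 in E12.5 cells, 1.55-fold higher at E12.5. Its second probe set had 34.2 in adult and 145 in E12.5 cells, 4.26-fold higher at E12.5, so that the size of this difference depended on the probe set while its direction did not. Lrp5 gave low signals, with 22.9 (absent) in adult and 16.5 in E12.5 cells.

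R-spondins and their Lgr receptors were at least 2-fold apart in all 6 detected genes, 2 towards adult and 4 towards E12.5, with a median of -1.67. The shares of all detected genes were 16.9% towards adult and 29.1% towards E12.5. Rspo2 and Lgr6 came within 2-fold under an alternative of processing, as given below. Rspo1, known for its part in ovary formation, had 5204 in adult and 726 in E12.5 cells, 7.16-fold higher in adult, and 2.47% of genes present on both arrays were at least as far towards adult. Rspo3, the R-spondin of central vein endothelium in adult liver, had 214 in adult and 1245 in E12.5 cells, 5.81-fold higher at E12.5, with 3.61% of genes at least as far in that direction. A second probe set of Rspo3 was at 1.55 (absent) in adult and 77.5 in E12.5 cells.

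Rspo2, known for limb and lung formation, had 14.9 in adult and 163 in E12.5 cells, 10.9-fold higher at E12.5. A second probe set, without a present call on either array, had 51.4 in adult and 69.4 in E12.5 cells. With no detection filter that probe set represents the gene, and the log2 difference of -3.45 becomes -0.43. Rspo4 was not detected.

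The Lgr receptors divided. Lgr5, which marks stem cells of the intestine and is itself a Wnt target, had 252 in adult and 27.8 in E12.5 cells, 9.05-fold higher in adult, and 1.79% of genes present on both arrays were at least as far towards adult. Lgr4, the broadly expressed member, had 267 in adult and 997 in E12.5 cells, 3.73-fold higher at E12.5. Lgr6 was absent in adult at 10.7 and present in E12.5 cells at 29.0, a bound of at least 2.70-fold. At such low signals the difference of Lgr6 vanished with a floor of 32 on all signals. For Lgr4 and Lgr5 a second probe set was absent on both arrays.

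Of 7 detected secreted antagonists 6 passed 2-fold towards E12.5 (median -1.82), where the share of all detected genes was 29.1%, and Dkk3 was the exception. Of these 6, Dkk1, Sfrp1 and Sfrp5 were at least 2-fold apart under every alternative of processing, and Dkk2, Wif1 and Sfrp2 were not. Sfrp1, a Wnt-binding protein with a Frizzled-like domain, had 343 in adult and 1847 in E12.5 cells, 5.39-fold higher at E12.5, and 4.20% of genes present on both arrays were at least as far in that direction. All 4 of its detected probe sets went the same way, among them one with 86.1 in adult and 469 in E12.5 cells and one with 5.06 (absent) and 96.7. Its relative Sfrp5 had 67.3 in adult and 237 in E12.5 cells, 3.52-fold higher at E12.5. Sfrp2 had 120.4 in adult and 276 in E12.5 cells, 2.30-fold higher at E12.5, and its log2 difference of -1.20 was -0.82 with detected genes centred. Sfrp4 had a marginal call in adult (165) and an absent call at E12.5 (93.4), and was not counted as detected.

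Wif1, another secreted Wnt-binding protein, had 13.1 (absent) in adult and 62.2 in E12.5 cells, at least 4.74-fold higher at E12.5. Dkk1, the blocker of Lrp5 and Lrp6, had 31.0 (absent) in adult and 98.1 in E12.5 cells, at least 3.16-fold higher at E12.5. Its second probe set had 8.07 (absent) in adult and 21.1 in E12.5 cells. Dkk2 was absent at 3.51 in adult and present at 29.5 in E12.5 cells, at least 5.05-fold higher at E12.5. With the floor of 32 the log2 difference of Wif1 was -0.96 in place of -2.25, and that of Dkk2 was 0. The 3 genes present at E12.5 alone had weak signals, so that their folds rest on the dim end of the intensity range.

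Dkk3, a divergent member of the Dkk family, had 1216 in adult and 199 in E12.5 cells, 6.11-fold higher in adult, with 3.15% of genes at least as far towards adult. Its second probe set had 439 in adult and 108 in E12.5 cells, 4.07-fold higher in adult. Both detection calls were present on both probe sets. Dkk4 was not detected. Of 8 stellate and fibroblast markers, 1 passed 2-fold towards adult, 5 towards E12.5 and 2 in neither direction. The shares of all detected genes were 16.9% towards adult and 29.1% towards E12.5. Lrat was at least 2.73-fold higher in adult, Acta2 had 3811 in adult and 2184 in E12.5 cells, Col1a1 had 501 and 4503, and Pdgfrb had 485 and 1199. Their part in the antagonist values was not tested.

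Inside the cell, 2 of the 5 genes passed 2-fold towards E12.5, none towards adult and 3 in neither direction (median -0.83). The shares of all detected genes were 29.1% towards E12.5 and 16.9% towards adult, and 5 genes are too few to set against them. Tcf7l1, a TCF factor that mostly represses, had 626 in adult and 1508 in E12.5 cells, 2.41-fold higher at E12.5, and its second probe set had 273 and 1151, 4.21-fold higher. Its log2 difference of -1.27 was -0.90 after quantile normalization and -0.89 with detected genes centred. Lef1, a TCF/LEF factor and a target of the pathway, had 18.3 (absent) in adult and 60.6 in E12.5 cells, at least 3.32-fold higher at E12.5. With the floor of 32 its log2 difference of -1.73 was -0.92.

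Tcf7l2 did not lean to either side. Its representing probe set had 392 in adult and 298 in E12.5 cells, while the next had 287 and 370, in the other direction, and the 2 dimmer ones had 93.3 in adult and 96.1 (absent) in E12.5 cells, and 79.6 and 87.8. Axin1, the scaffold of the destruction complex, had 451 in adult and 801 in E12.5 cells, 1.78-fold higher at E12.5. Axin2, widely used as a readout of beta-catenin activity, had 436 in adult and 242 in E12.5 cells, 1.80-fold higher in adult. Its log2 difference of 0.85 was 1.22 with detected genes centred and 0.29 with no scaling.

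**Figure D3:**
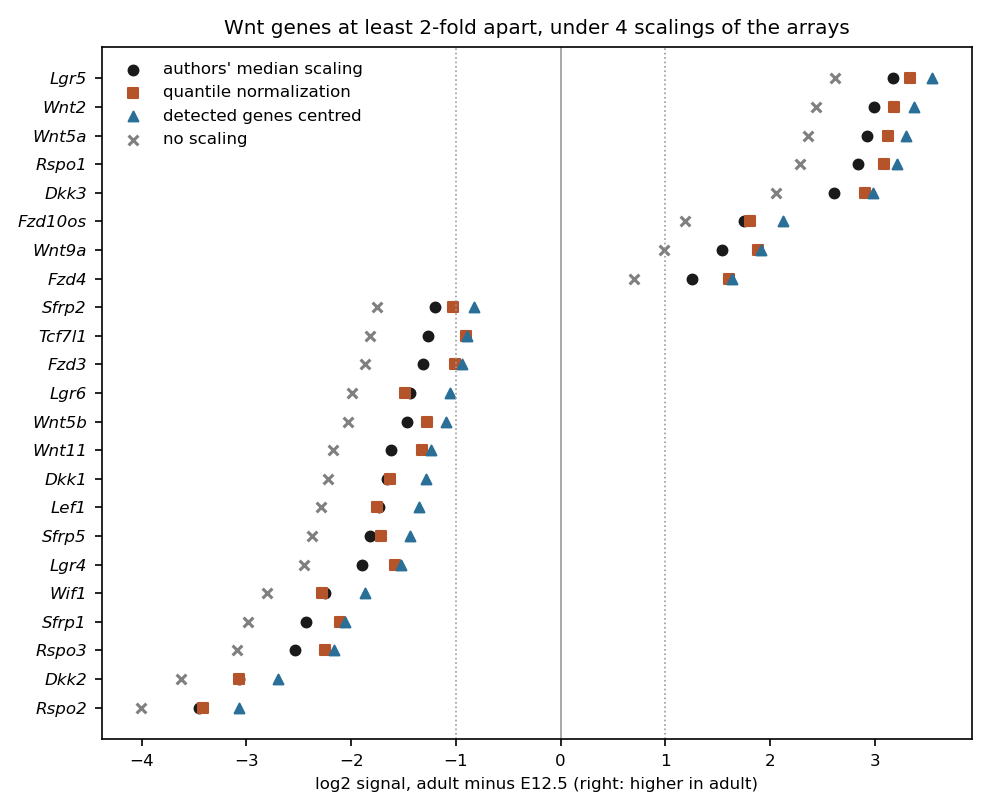
Log2 differences, adult minus E12.5, of the 23 Wnt genes at least 2-fold apart, under 4 scalings of the arrays. Dotted lines mark 2-fold. The 5 genes that come within 2-fold under a scaling are Wnt9a, Fzd4, Sfrp2, Tcf7l1 and Fzd3, and no gene changes side. No scaling and centring shift every gene alike by too little to change a side, so only quantile normalization could have done so.

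Other genes of the pathway, from a list of components outside the symbol rule, gave shares near those of all genes. Of 54 with a probe set 45 were detected, 7 (15.6%) past 2-fold towards adult and 15 (33.3%) towards E12.5 (median -0.34). At the cell surface, Kremen1, a receptor for Dkk1, had 335 in adult and 57.9 in E12.5 cells (5.79-fold higher in adult). The heparan sulfate sulfatase Sulf1 had 6699 in adult and 2477 in E12.5 cells, and the glypican Gpc4 had 692 and 301. Sostdc1, an antagonist of Wnt and BMP signals, had 4.43 (absent) in adult and 66.4 in E12.5 cells, at least 11.4-fold higher at E12.5. Ror2, a receptor of Wnt5a, had 77.4 in adult and 238 in E12.5 cells, on the other side from Wnt5a. Ror1 (200 in adult and 268 in E12.5 cells) and Ryk (622 and 791), also on the list, lay within 2-fold. Znrf3, the ligase that removes Frizzled receptors and is held back by R-spondins, had 141 in adult and 295 in E12.5 cells. The Wnt carrier Wls lay within 2-fold, at 978 in adult and 911 in E12.5 cells.

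Within the cell, the signal transducer Dvl1 (2.71-fold), the Dvl-binding inhibitor Nkd1 (3.94-fold) and the corepressor Tle2 (2.48-fold) were higher in adult. Higher at E12.5 were the casein kinases Csnk1a1 (2.95-fold) and Csnk1e (3.84-fold), the tankyrases Tnks (3.19-fold) and Tnks2 (3.39-fold), which mark Axin for removal, and the ubiquitin ligase subunit Btrc (2.41-fold). So were the beta-catenin partners Bcl9 (5.99-fold) and Pygo1 (at least 4.0-fold), the inhibitor Ctnnbip1 (at least 3.42-fold) and the corepressor Tle4 (5.78-fold). Ctnnb1, the gene of beta-catenin, had 5255 in adult and 8430 in E12.5 cells, within 2-fold. Of the genes of planar cell polarity, the arm of the pathway that orients cells in a sheet, Vangl2 (7.46-fold), Daam2 (6.08-fold) and Celsr1 (3.33-fold) were higher at E12.5. Celsr2 was higher in adult (at least 2.14-fold), and Vangl1, Prickle1, Prickle2, Daam1 and Invs lay within 2-fold.

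Genes known as Wnt targets in one tissue or another went both ways. Of 28 with a probe set 24 were detected, 7 (29.2%) past 2-fold towards adult and 7 (29.2%) towards E12.5, where the shares of all detected genes were 16.9% and 29.1%. The median was -0.044 with measured values and 0.019 with bounds in their place. Of the 19 present on both arrays, 7 (36.8%) passed 2-fold towards adult and 3 (15.8%) towards E12.5 (median 0.62). Over all genes present on both arrays the shares were 13.2% and 27.1% (median -0.37). The list was chosen with earlier results of these data known, so that no conclusion is drawn from this contrast. The list includes 4 of the genes above by their symbol, namely Axin2, Lgr5, Lef1 and Dkk1. Besides Lgr5 and Nkd1 (1228 in adult and 312 in E12.5 cells), those higher in adult were Bmp4 (3130 and 274), Cd44 (793 and 214), Fgf18 (643 and 213), Oat (4583 and 2135) and Cyp2e1 (70.8 and 18.6), the last 2 being pericentral hepatocyte genes. Besides Znrf3, Lef1 and Dkk1, those higher at E12.5 were Ccn4 (100.4 in adult and 1320 in E12.5 cells), Tnfrsf19 (45.5 and 317), Tbx3 (1.38, absent, and 124) and Sox9 (29.5, absent, and 152). Ccnd1 (1130 in adult and 735 in E12.5 cells) and Myc (265 and 410) lay within 2-fold.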

How the data were processed

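Per the file headers, the table deposited by the authors gives 45101 probe sets on each of 2 arrays, with a raw intensity on a linear scale and a detection call (present, marginal or absent). The submitters' processing notes name Affymetrix Expression Console; in the sources used here it is not given how probes were summarised. The deposited ratio is, tested on the values, the adult signal over 0.680 times the E12.5 signal, and the series' value table holds the same raw intensity values, rounded. Here the adult signals were divided by that constant (0.56 on the log2 scale) and 64 control probe sets were left out. Gene names are those of the platform annotation, updated outside the members with RefSeq symbols (GRCm38.p6). Differences are log2 adult minus log2 E12.5, with no pseudocount. For a lower bound, the bright signal was divided by the dim one, or by the lowest signal with a present call on that array (5.84 in adult, 4.57 at E12.5) where this was higher. A marginal call was not taken as detected. Every detected member is named, and of the other pathway list every gene at least 2-fold apart. The members and lists were chosen with earlier results of these data known. Calculations used Python 3.11.15, numpy 2.4.6 and pandas 2.3.3, and were tested on simulated data. Alternatives covered scaling, low signals, detection, the choice of probe set and the fold threshold. With 1 array per group no test, SD between arrays or p-value was computed, and the number of arrays limits the precision. The SD of 0.62 is between probe sets of a gene.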

Additional observations from a re-analysis of the deposited data

How the results depend on the processing

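The median log2 difference of the Wnt genes, adult minus E12.5, was -0.40 and stayed negative under every alternative run. It was -0.20 after quantile normalization, -0.96 with no scaling, -0.026 with detected genes centred, -0.14 with a floor of 32, -0.28 with marginal calls counted, -0.23 with no detection filter, -0.52 with a present call on both arrays and -0.55 with detected probe sets averaged. The median of all detected genes was -0.35, and it was -0.12, -0.91 and 0.020 under the first 3 of these, of which the last 2 shift every gene alike. The Wnt median minus that of all detected genes was -0.046, against 0.14 with the floor and -0.23 with probe sets averaged. The count at least 2-fold higher in adult was 8 (6 to 11 under alternatives at that fold) and that at E12.5 was 15 (10 to 20). A 4-fold threshold left 5 and 5, and a 1.5-fold threshold gave 11 and 18. Of 387 values of single genes under alternatives, 351 stayed within 0.62 of the main log2 value and on the same side of 2-fold, and 36 did not. No gene at least 2-fold apart turned round, though Dkk2 and Lgr6 came to 0 with the floor. Many of these agreements were fixed in advance. No scaling and centring shift every gene alike by less than 0.62, too little to turn round a gene past 2-fold. The alternatives of detection left most values as they were. The count of 351 is therefore no measure of robustness. Of 23 such genes, 13 were at least 2-fold apart in the same direction under every alternative that gave a value. No paired analysis was possible because each group has 1 array. Signals near the limit of detection (Lgr6, Dkk2, Wif1, Lef1, Lrp5, Wnt8b) carry the least weight. The folds of Rspo2 (14.9 in adult) and Lgr5 (27.8 in E12.5 cells) also rest on a dim signal on 1 array.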
